A study of Mus musculus with 6 samples.

Results

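The genes examined here encode the SR proteins and the heterogeneous nuclear ribonucleoproteins (hnRNPs), the main families of RNA-binding proteins that choose splice sites in nuclear pre-mRNA. These families were proposed with earlier results of the same libraries known. Their genes were then matched by name and class alone. The rule took every row of the deposited gene table with a protein-coding transcript and a symbol of the form Srsf, Tra2a or Tra2b, Hnrnp or Ptbp1 to Ptbp3. That rule found 36 of 55385 genes, of which 13 belong to the SR side (11 Srsf genes and the 2 Tra2 genes) and 23 to the hnRNP side (20 Hnrnp genes and the 3 Ptbp genes). The values come from mouse Neuro2A cells, a neuroblastoma line that the labels describe as neuroblasts, cultured in serum and carrying no genetic change that the labels name. Of the 6 libraries, 3 came from cells transfected with an siRNA named for circCpsf6 (si-circCpsf6) and 3 from cells given the comparison siRNA si-NC, each at 100 nM. CircCpsf6 is a circular RNA named after Cpsf6, and the labels give no time after transfection, no siRNA sequence and no statement that the replicates were separate cultures. P-values therefore reflect only how far these libraries vary, and that variation could be technical.

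SR proteins carry RNA recognition motifs and a tail rich in arginine and serine, bind enhancer sequences in exons, and help the early spliceosome to assemble at nearby splice sites. HnRNPs coat nascent transcripts and often act against SR proteins by binding silencer sequences, so the balance between the families bears on which exons are kept. Most genes of both families also control their own level: their transcripts hold alternative exons or retained introns that lead to nonsense-mediated decay (NMD), the pathway that destroys mRNAs with early stop codons. In the neural lineage the family is known for the exchange of Ptbp1, a repressor of neuronal exons in dividing progenitors, for its paralogue Ptbp2 in young neurons.

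The table gives 1 value per gene and library in FPKM, a fragment count divided by transcript length and library size. The counts themselves could not be recovered, because at most 35.8% of low values fell within 0.1 of a whole number of steps. Cpsf6 itself had a mean of 14.6 ± 0.561 FPKM under si-NC and of 13.4 ± 2.40 under si-circCpsf6 (SD, n = 3 for each). This gene-level value does not tell the circle from linear mRNA and so does not check the silencing. Between 12671 and 13080 genes reached 1 FPKM in a library, and mitochondrial protein-coding genes took 15.0% to 20.6% of a si-NC library and 16.4% to 18.5% of a si-circCpsf6 library. Among markers of sympathetic neuroblasts, 10 had a mean of at least 1 FPKM. They summed to between 756 and 938 FPKM in si-NC and between 653 and 699 FPKM in si-circCpsf6, but 5 had estimates above 0 and 5 below. An unadjusted p under 0.05 was reached by 4 with lower and 1 with higher values (limma), against 10.1% and 10.2% of all tested genes. After adjustment 0 of the 10 passed. Most of the sum was Tubb3, at 506 ± 76.8 and 392 ± 14.3 FPKM, and Hand2, at 167 ± 10.9 and 120 ± 2.95 FPKM. Markers of other cells were low: 4 fibroblast genes summed to at most 7.36 FPKM in any library, 3 endothelial genes to at most 2.08, 3 astrocyte genes to at most 1.67, 3 oligodendrocyte genes to at most 1.1 and 3 microglial genes to at most 0.26. Aqp4 and Mag were listed at 0 throughout. In bulk RNA, fewer cells of a kind and less RNA per cell cannot be told apart.

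Of the 36 genes, 35 had a mean of at least 1 FPKM and could be tested. Srsf12, an SR-like gene, was the exception, at 0.02, 0.08 and 0.03 FPKM in si-NC and 0.19, 0 and 0.15 FPKM in si-circCpsf6. Over the 6 libraries the tested hnRNP genes had a median level of 37.4 FPKM and the SR genes 23.9 FPKM, against 6.95 FPKM for all 12974 tested genes. Hnrnpa1, a shuttling splicing repressor, was the most abundant member with a mean of 340 FPKM (range of the 6 libraries 294 to 375), and it alone made up 26.1% of the summed hnRNP level. Next came Hnrnpab, also called CArG-box binding factor A, at 203 FPKM, and Hnrnpf, which binds runs of guanines, at 96.5 FPKM, and the first 3 together held 49.2% of the sum. Hnrnpab and Hnrnpf did not overlap in any library, with lowest and highest values of 131 and 115 FPKM. Hnrnpf overlapped Hnrnpa2b1 (54.2 to 120 FPKM) and Srsf2 (62.1 to 123 FPKM), so the order of these genes is not resolved by their spread. On the SR side Srsf2 led, followed by Srsf6 at 52.8 FPKM and Srsf5 at 45.5 FPKM, and these held 48.8% of the SR sum. The lowest tested members were Hnrnpll at 8.05, Hnrnpa3 at 7.51 and Ptbp2 at 7.27 FPKM, which overlapped each other.

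**Figure D1:**
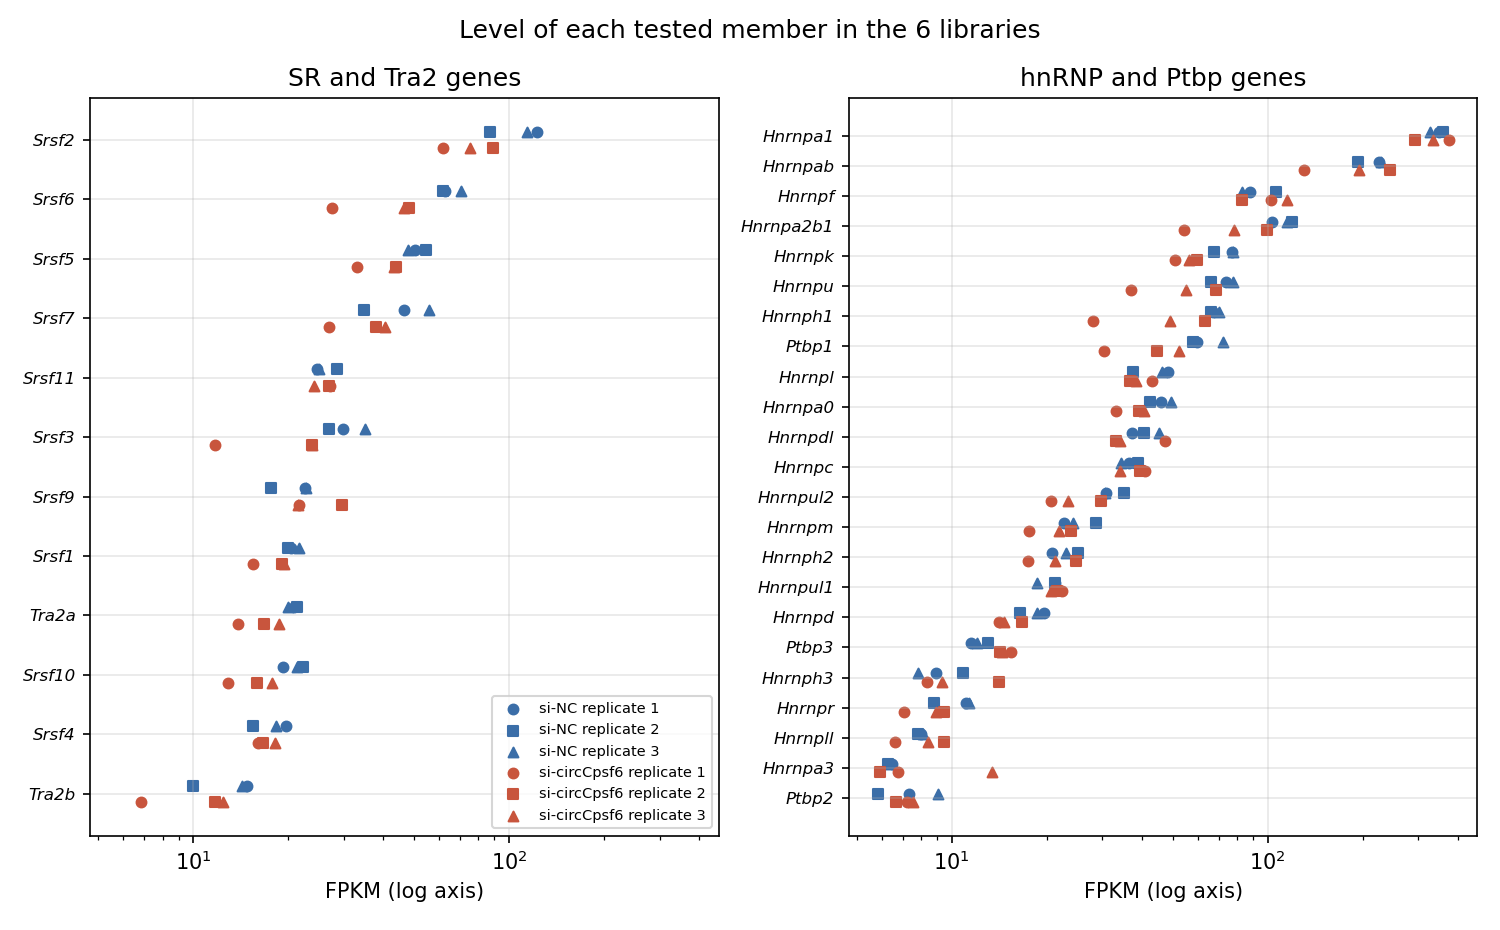
FPKM (log axis) of each tested member in the 6 libraries, with SR and Tra2 genes on the left and hnRNP and Ptbp genes on the right, sorted by mean level; colours mark the group and shapes the replicate. Hnrnpa1 stands at the top near 340 FPKM, and for many genes the circle of si-circCpsf6 replicate 1 lies at the left end.

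Levels under si-circCpsf6 were set against those under si-NC to see whether these genes differ when the circle is targeted. No member passed the test in either direction: 0 of 35 were called lower, where 0.786% of all 12974 tested genes were, and 0 of 35 were called higher, where 0.902% were (limma on log2(FPKM + 1), Benjamini-Hochberg adjusted p under 0.05). The smallest adjusted p of a member was 0.141, for Srsf6 (limma). The estimates nevertheless lay mostly on 1 side. The log2 fold change was below 0 for 26 of 35 members, against 52.8% of all tested genes, and its median was -0.34 over the 12 tested SR genes and -0.15 over the 23 hnRNP genes, against -0.02 over all tested genes. The SR estimates ran from -0.70 to 0.19 and the hnRNP estimates from -0.60 to 0.32. An unadjusted p under 0.05 was reached by 9 members with lower values (25.7%, against 10.1% of all tested genes) and by 0 members with higher values (10.2% of all tested genes). The count of 9 moved with single libraries. Leaving out si-NC replicate 1, 2 or 3 gave 4, 5 and 1 members, against 7.07%, 9.30% and 6.45% of all tested genes. Leaving out si-circCpsf6 replicate 1, 2 or 3 gave 3, 11 and 6 members, against 9.38%, 10.7% and 8.86%. The 3 si-circCpsf6 values lay wholly below the 3 si-NC values in 12 of 35 members (34.3%, against 14.0% of all tested genes), 6 of 12 SR genes and 6 of 23 hnRNP genes. They lay wholly above in 1 member, Ptbp3 (2.86%, against 12.8%). These counts describe the members, which were proposed with earlier results of the same libraries known.

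**Figure D2:**
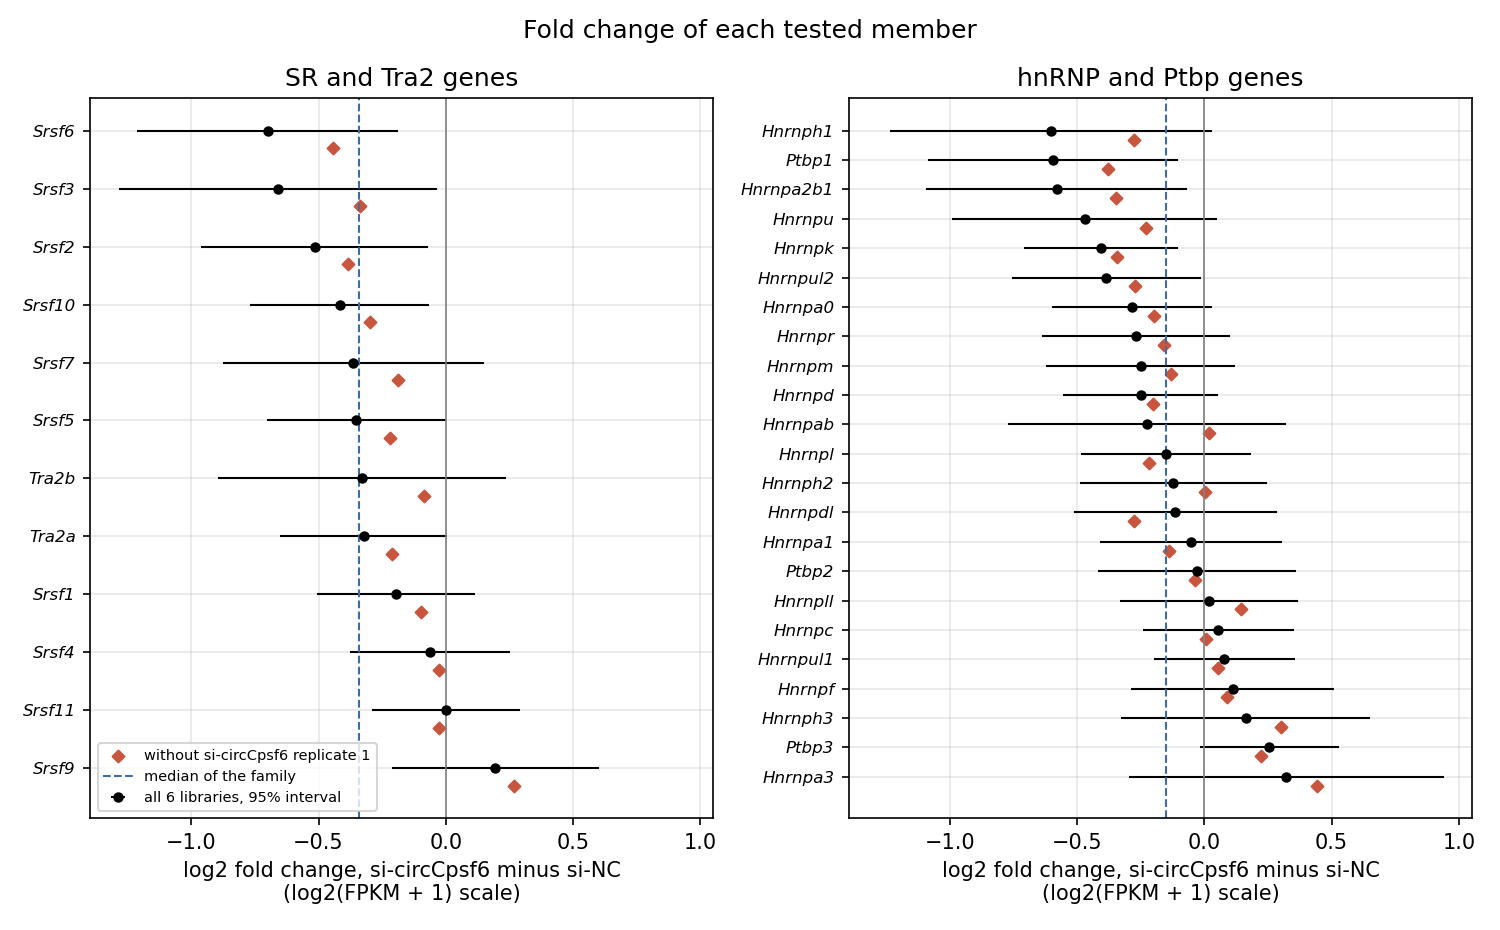
Log2 fold change of si-circCpsf6 against si-NC for each tested member on the log2(FPKM + 1) scale, as black points with 95% limma intervals, with the estimate without si-circCpsf6 replicate 1 as diamonds and the family median as a dashed line (-0.34 for SR, -0.15 for hnRNP). The points of 10 of 12 SR genes lie left of 0, and in that family the diamonds mostly lie closer to 0 than the points.

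Library si-circCpsf6 replicate 1 stood apart and bears on all that follows. It held the lowest of the 6 values in 22 of the 35 members, where it did so in 28.8% of all tested genes. Relative to the si-NC mean, the median SR gene lay at -0.64 on the log2 scale in that library, at -0.23 in replicate 2 and at -0.14 in replicate 3. The median hnRNP gene lay at -0.35, -0.11 and -0.17 in the same order, while the median of all tested genes lay at -0.04 in replicate 1. Among the si-NC libraries the median SR gene lay at -0.12 in replicate 2 and at 0.08 in replicate 3. The hnRNP medians there lay between -0.01 and 0.03. All 3 si-circCpsf6 libraries were thus on the low side, although for SR genes si-NC replicate 2 was nearly as low as si-circCpsf6 replicate 3. The lowest for both families was si-circCpsf6 replicate 1. Without replicate 1 the median log2 fold change was -0.20 for SR genes and -0.14 for hnRNP genes, 25 of 35 members were below 0 (51.1% of all tested genes), and 3 members kept an unadjusted p under 0.05 with lower values (8.57%, against 9.38% of all tested genes). In 13 of 35 members the remaining si-circCpsf6 values lay wholly below si-NC (37.1%, against 18.9% of all tested genes): the 12 above and Hnrnpdl, whose replicate 1 value was the highest of the 6 libraries. The 3 with an unadjusted p under 0.05 were Srsf6, Ptbp1 and Hnrnpk.

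**Figure D3:**
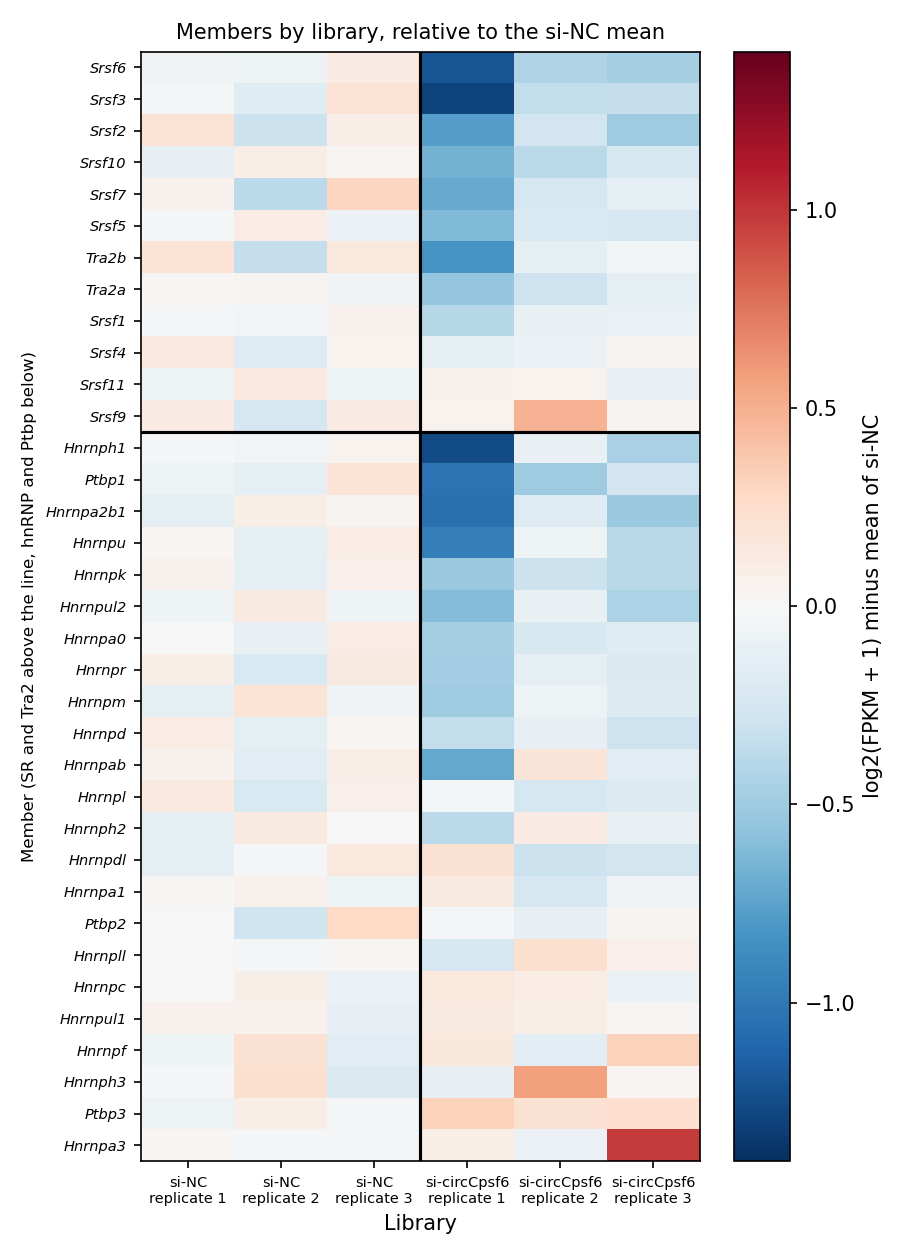
Log2(FPKM + 1) of each tested member in each library minus the mean of the 3 si-NC libraries (blue lower, red higher), with SR and Tra2 genes above the horizontal line and si-NC libraries left of the vertical line. The column of si-circCpsf6 replicate 1 is the darkest blue, lowest of the 6 libraries in 22 of 35 members, and the darkest red cell is that of Hnrnpa3 in si-circCpsf6 replicate 3.

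Among the SR proteins, Srsf6 had the largest difference. Srsf6 (ENSMUSG00000016921, chromosome 2, 162931528 to 162937121, GRCm38), a regulator of exon inclusion that is also known from wound repair and tau splicing, read 62.7, 61.7 and 70.4 FPKM in si-NC and 27.5, 48.2 and 46.5 FPKM in si-circCpsf6. Every si-circCpsf6 library was below every si-NC library, with replicate 1 the lowest. The log2 fold change was -0.70 ± 0.22 (SE, n = 3; 95% interval -1.21 to -0.19; limma adjusted p = 0.141), and -0.44 without replicate 1. The authors' deposited table gave it a fold change of 0.63 with a q-value of 0.06, the smallest q-value of any member.

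Srsf3, the smallest SR protein and a factor in mRNA export and 3' end choice, read 29.7, 26.9 and 35.0 FPKM in si-NC and 11.7, 23.8 and 23.8 FPKM in si-circCpsf6. The groups did not overlap, but the log2 fold change of -0.66 ± 0.27 shrank to -0.34 without replicate 1 (limma adjusted p = 0.226 with all libraries). Srsf2, also called SC35, read 123, 86.8 and 114 FPKM in si-NC and 62.1, 88.7 and 75.3 FPKM in si-circCpsf6. Here the groups overlapped, since si-NC replicate 2 lay below si-circCpsf6 replicate 2, and the log2 fold change was -0.51 ± 0.19 (limma adjusted p = 0.191; -0.38 without replicate 1). Srsf10, an SR-like repressor that is dephosphorylated in mitosis and heat shock, read 19.2, 22.3 and 21.4 FPKM in si-NC and 12.9, 15.9 and 17.8 FPKM in si-circCpsf6, groups that did not overlap (log2 fold change -0.42 ± 0.15, limma adjusted p = 0.180; -0.30 without replicate 1).

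Srsf5, an SR protein first found as an early growth response gene of liver, read 50.2, 54.8 and 47.9 FPKM in si-NC and 32.9, 43.8 and 43.2 FPKM in si-circCpsf6. These groups did not overlap either (log2 fold change -0.35 ± 0.15, limma adjusted p = 0.246; -0.22 without replicate 1). Srsf7, which acts with Srsf3 in mRNA export, read 46.7, 34.6 and 55.7 FPKM in si-NC and 27.0, 37.8 and 40.6 FPKM in si-circCpsf6. Its groups overlapped widely, because si-NC replicate 2 was lower than 2 of the si-circCpsf6 libraries (log2 fold change -0.36 ± 0.22, limma adjusted p = 0.408; -0.19 without replicate 1).

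Srsf1, the founding SR protein, read 20.4, 20.0 and 21.6 FPKM in si-NC and 15.5, 19.1 and 19.4 FPKM in si-circCpsf6. Its groups lay apart, but by a small margin (log2 fold change -0.20 ± 0.13, limma adjusted p = 0.458; -0.10 without replicate 1). The remaining SR genes had estimates near or above 0. Srsf4 had a log2 fold change of -0.06 with a 95% interval of -0.38 to 0.25. Srsf11, an SR-like protein also known as p54 that promotes neuronal microexons, read 24.6, 28.6 and 25.0 FPKM in si-NC and 27.1, 26.9 and 24.2 FPKM in si-circCpsf6, a log2 fold change of 0.00 with a 95% interval of -0.29 to 0.29. Srsf9 had the highest SR estimate (0.19, 95% interval -0.21 to 0.60), with a value of 29.7 FPKM in si-circCpsf6 replicate 2 and at most 22.7 FPKM in any other library.

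The Tra2 proteins, relatives of the fly sex-determination factor Transformer 2 that bind GAA-rich exonic enhancers, both had estimates below 0. Tra2a read 20.9, 21.4 and 19.9 FPKM in si-NC and 13.9, 16.8 and 18.8 FPKM in si-circCpsf6. The groups did not overlap (log2 fold change -0.32 ± 0.14, limma adjusted p = 0.253; -0.21 without replicate 1). Tra2b read 14.8, 9.99 and 14.3 FPKM in si-NC and 6.85, 11.7 and 12.5 FPKM in si-circCpsf6, and the groups overlapped (log2 fold change -0.33 ± 0.24, limma adjusted p = 0.496). The estimate of Tra2b rested on replicate 1, without which it was -0.08.

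In the hnRNP A/B group, 4 of 5 estimates were below 0. Hnrnpa2b1, which packages pre-mRNA and sorts RNAs for transport in neurites, read 103, 120 and 115 FPKM in si-NC and 54.2, 99.2 and 78.3 FPKM in si-circCpsf6. The groups lay apart, with the lowest si-circCpsf6 library again replicate 1 (log2 fold change -0.58 ± 0.22, limma adjusted p = 0.199; -0.35 without it). Hnrnpa0, an AU-rich-element-binding relative, also had groups that did not overlap, at 45.9 ± 3.48 and 37.5 ± 3.98 FPKM (n = 3 each; log2 fold change -0.28, limma adjusted p = 0.289). Hnrnpa1, by contrast, had overlapping groups. It read 349, 359 and 328 FPKM in si-NC and 375, 294 and 334 FPKM in si-circCpsf6, a log2 fold change of -0.05 with a 95% interval of -0.41 to 0.31. Hnrnpa1 was highest in the library in which Srsf6, Srsf3 and Hnrnpa2b1 were lowest. Hnrnpab read 225, 194 and 229 FPKM in si-NC and 131, 245 and 194 FPKM in si-circCpsf6, and its log2 fold change turned from -0.23 to 0.02 without replicate 1. Hnrnpa3 had the largest estimate above 0 (0.32, 95% interval -0.30 to 0.94), made by 1 library: it read 13.4 FPKM in si-circCpsf6 replicate 3 and between 5.91 and 6.75 FPKM in the other 5.

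The F/H group, which binds G-runs next to exons, was split. Hnrnph1 read 67.1, 66.3 and 70.1 FPKM in si-NC and 27.9, 63.2 and 49.2 FPKM in si-circCpsf6. The si-NC libraries lay close together and the si-circCpsf6 libraries did not. Its log2 fold change, -0.60 ± 0.27, had a limma adjusted p of 0.268 and shrank to -0.28 without replicate 1. Hnrnph2, its paralogue on chromosome X, stood at 22.9 ± 2.19 and 21.1 ± 3.64 FPKM (log2 fold change -0.12). Hnrnpf read 88.2, 107 and 82.9 FPKM in si-NC and 103, 83.1 and 115 FPKM in si-circCpsf6 (log2 fold change 0.11, 95% interval -0.29 to 0.51). Hnrnph3 had an estimate of 0.16 with a 95% interval of -0.33 to 0.65.

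Hnrnpk (ENSMUSG00000021546, chromosome 13, 58391142 to 58403343, GRCm38), a KH-domain protein that binds runs of cytosine and acts in transcription and translation as well as splicing, had the most even pattern of the members with lower values. It read 76.9, 67.6 and 77.8 FPKM in si-NC and 51.1, 59.6 and 56.4 FPKM in si-circCpsf6. All 3 treated libraries lay below all 3 comparison libraries, and replicate 1 was again the lowest, by a smaller margin than in Srsf6 or Hnrnph1. The log2 fold change was -0.41 ± 0.13 (95% interval -0.71 to -0.10; limma adjusted p = 0.145), and -0.35 without replicate 1. In the U group, Hnrnpu, also called scaffold attachment factor A, which ties RNA to chromatin, read 73.7, 66.0 and 77.9 FPKM in si-NC and 36.9, 68.8 and 55.0 FPKM in si-circCpsf6. Its groups overlapped at si-circCpsf6 replicate 2 (log2 fold change -0.47 ± 0.22, limma adjusted p = 0.290; -0.23 without replicate 1). Hnrnpul2 lay apart at 32.2 ± 2.58 and 24.6 ± 4.64 FPKM (n = 3 each; log2 fold change -0.39, limma adjusted p = 0.232), whereas its paralogue Hnrnpul1 had overlapping groups (log2 fold change 0.08, 95% interval -0.20 to 0.36).

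Hnrnpr, a relative of Syncrip that carries beta-actin mRNA in axons, read 11.1, 8.80 and 11.4 FPKM in si-NC and 7.08, 9.44 and 8.91 FPKM in si-circCpsf6, groups that overlapped (log2 fold change -0.27 ± 0.16, limma adjusted p = 0.392). Hnrnpm and Hnrnpd had the same estimate, -0.25, and overlapping groups. The other hnRNP genes stood closer to 0: Hnrnpl at -0.15, Hnrnpdl at -0.11, Hnrnpll at 0.02 and Hnrnpc, the classic core hnRNP that binds runs of uridine, at 0.06. For Hnrnpc the 95% interval ran from -0.24 to 0.35.

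The 3 polypyrimidine tract binding proteins gave estimates on both sides of 0. Ptbp1 (ENSMUSG00000006498, chromosome 10, 79854427 to 79864771, GRCm38) read 59.9, 57.9 and 72.4 FPKM in si-NC and 30.4, 44.6 and 52.4 FPKM in si-circCpsf6. The groups did not overlap, and the log2 fold change was -0.60 ± 0.21 (95% interval -1.09 to -0.10; limma adjusted p = 0.175), and -0.38 without replicate 1. Ptbp2, the neuronal paralogue whose own mRNA Ptbp1 directs to decay, read 7.32, 5.82 and 9.06 FPKM in si-NC and 7.19, 6.66 and 7.55 FPKM in si-circCpsf6. All si-circCpsf6 values lay within the si-NC range, and the log2 fold change was -0.03 with a 95% interval of -0.42 to 0.36. Ptbp3, formerly ROD1 and known from blood cell differentiation, read 11.5, 13.0 and 12.0 FPKM in si-NC and 15.5, 14.2 and 14.4 FPKM in si-circCpsf6. It was the only member with every si-circCpsf6 value above every si-NC value (log2 fold change 0.25 ± 0.12, 95% interval -0.02 to 0.53; limma adjusted p = 0.277; 0.22 without replicate 1). The differences between the fold changes of the paralogues were not tested.

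Summed over each family, the SR genes reached 455, 400 and 467 FPKM in si-NC and 275, 379 and 362 FPKM in si-circCpsf6. The SR sums of the groups did not overlap, and the ratio of their means was 0.769, or 0.841 without replicate 1. The hnRNP sums were close to each other in si-NC, at 1379, 1376 and 1398 FPKM, and lower in si-circCpsf6, at 1117, 1282 and 1246 FPKM, a ratio of 0.878, or 0.913 without replicate 1. Without Hnrnpa1 the hnRNP sum ranged from 1016 to 1070 FPKM in si-NC and stood at 742, 988 and 912 FPKM in si-circCpsf6. The SR sum divided by the hnRNP sum was 0.330, 0.291 and 0.334 in si-NC and 0.246, 0.296 and 0.291 in si-circCpsf6. These ratios overlapped: si-NC replicate 2 lay at the level of si-circCpsf6 replicates 2 and 3, and only si-circCpsf6 replicate 1 stood below. On the log2 scale the ratio was -1.655 ± 0.109 in si-NC and -1.854 ± 0.145 in si-circCpsf6 (mean ± SD, n = 3 each), or -1.770 for the latter without replicate 1. These sums weight abundant genes most and are given without a test.

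**Figure D4:**
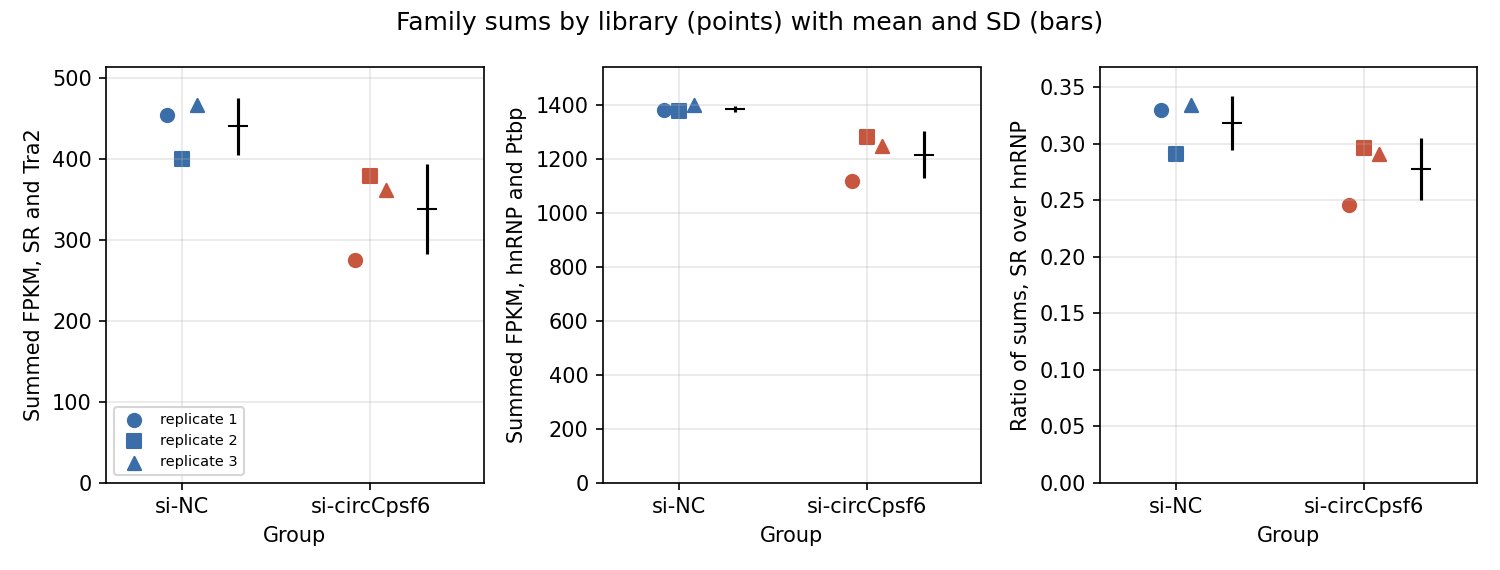
Summed FPKM of the SR and Tra2 genes (left), of the hnRNP and Ptbp genes (middle) and their ratio (right) in each library, with points for replicates and bars for mean and SD. Sums of the 2 groups do not overlap in either family, while the ratios overlap between 0.291 and 0.296.

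Over the 6 libraries, with each group's mean removed, the median pairwise correlation of log2(FPKM + 1) was 0.61 among the 66 pairs of tested SR genes, 0.08 among the 253 pairs of hnRNP genes and 0.38 for the 276 pairs across the families. Single pairs ran from -0.96 to 1.0 among SR genes and from -0.97 to 1.0 among hnRNP genes. The points share the same 6 libraries and their scaling, so these values are a description. Library si-circCpsf6 replicate 1 was the lowest of the 6 in 9 of the 12 SR genes. Correlations without that library, and those of all tested genes, were not computed. A list for entry into S phase and replication was read beside the splicing factors: 15 of 15 had an estimate below 0 with a median of -0.80 (-0.52 without replicate 1), 8 had an unadjusted p under 0.05 and 0 passed the test (limma). Of all tested genes, 52.8% were below 0 and 10.1% had such a p with lower values. In 0 of the 15 did the si-circCpsf6 values lie wholly below si-NC, against 14.0% of all tested genes. E2f2 read 12.7 ± 5.60 and 6.19 ± 0.934 FPKM and Mcm4 28.6 ± 9.55 and 15.1 ± 4.89 FPKM, with si-NC given first. The 15 genes summed to between 203 and 467 FPKM in si-NC and between 170 and 250 FPKM in si-circCpsf6. Their part in the SR and hnRNP values was not tested.

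The annotation shows what the families share beyond their names. In the class column of the deposited table, 11 of 13 SR genes (84.6%) and 13 of 23 hnRNP genes (56.5%) had a transcript annotated for NMD, against 29.8% of the 10776 tested genes with a protein-coding transcript. Retained-intron transcripts were annotated for 10 of 13 SR genes and 17 of 23 hnRNP genes, against 60.1%. A gene's FPKM does not tell such transcripts from the coding ones, so a lower or higher value need not be one of protein-coding mRNA.

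The heptamer GCAGAAT was chosen on these same libraries, where genes with it in the 3' untranslated region tended to lower values, so its values here are a description. It was looked for in the longest annotated 3' untranslated region of each tested gene (GENCODE M21, GRCm38, transcript strand only). It was present in 5 of 35 members (14.3%) and in 10.2% of 10630 tested genes with such a region. These 5 were 3 of 12 SR genes, Srsf2, Srsf6 and Srsf11, and 2 of 23 hnRNP genes, Hnrnpk and Hnrnpr. Their sites are shown because Srsf6 and Hnrnpk had the smallest p-values of the members, with the heptamer in capitals and 11 bases on either side.
Srsf6: ccaactaatgcGCAGAATtgaagaatccc
Hnrnpk: cagagcagtgtGCAGAATgtaatgctctt
Srsf2: taaagctgtcaGCAGAATgactcaacatt
Srsf11: tgtagatgcctGCAGAATcgtcaccagta
Hnrnpr, second of 3 copies: ttagtagatcaGCAGAATattaagatatg

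The Srsf6 stretch lies at chr2:162936814-162936842 on the plus strand and the Hnrnpk stretch at chr13:58391996-58392024 on the minus strand. The Srsf2 stretch is at chr11:116850554-116850582 (minus), that of Srsf11 at chr3:158010782-158010810 (minus) and that of Hnrnpr at chr4:136344239-136344267 (plus). The Hnrnpr region is exceptionally long at 19419 bases, against a median of 1429 bases over the members, and holds 3 copies, of which 1 is shown. Among the carriers the log2 fold change ranged from -0.70 for Srsf6 to 0.00 for Srsf11, with a median of -0.41. The 30 members without the heptamer had a median of -0.21, and members such as Srsf3, Hnrnph1, Ptbp1 and Hnrnpa2b1, at -0.58 or below, did not carry it. Over all tested genes the medians were -0.13 with and -0.01 without it.

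Promoters were read from RefSeq (GRCm38.p6, from 250 bases before to 50 after each annotated start) for 33 members. A gene counted as a carrier if any of its windows held the motif. The 20 hnRNP genes read had 29 windows, the 13 SR genes 16 and the 8860 tested genes 11308. The hexamer CACGTG, an E-box that MYC-family proteins can bind, was found in 6 of 20 hnRNP genes (30.0%) and in 0 of 13 SR genes, against 12.0% of 8860 tested genes with a promoter in the table. Since CACGTG is its own reverse complement, the strands are the same. CCAAT, searched on both strands, was present in 14 of 20 hnRNP genes and 5 of 13 SR genes, against 43.9%. GGGCGG, a GC box, was present in 16 and 12 of them, against 70.7%. The E-box lay before an annotated start site in Ptbp1, Hnrnpa3, Hnrnpd and Hnrnpf. Their windows are shown as 60 bases, hexamer in capitals, because this motif was found on the hnRNP side alone among the promoters read.
Ptbp1: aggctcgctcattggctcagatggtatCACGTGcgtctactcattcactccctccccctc
Hnrnpa3: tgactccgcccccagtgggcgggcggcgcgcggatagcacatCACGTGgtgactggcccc
Hnrnpd: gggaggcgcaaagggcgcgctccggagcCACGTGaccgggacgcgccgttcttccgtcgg
Hnrnpf: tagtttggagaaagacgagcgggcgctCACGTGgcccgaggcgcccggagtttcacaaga

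These windows lie at chr10:79854360-79854419 (plus) for Ptbp1, chr2:75659199-75659258 (plus) for Hnrnpa3, chr5:99978939-99978998 (minus) for Hnrnpd and chr6:117907698-117907757 (plus) for Hnrnpf. The Hnrnpf window lies inside the gene as annotated in GENCODE M21, which starts at 117900324, and so precedes a later start site. The fold changes of the 4 genes had no common direction, at -0.60, 0.32, -0.25 and 0.11 on the log2 scale. Mycn, the MYC-family gene amplified in many neuroblastomas, read 18.7, 6.74 and 12.6 FPKM in si-NC and 23.8, 19.4 and 23.8 FPKM in si-circCpsf6, with no overlap between the groups (log2 fold change 0.87, limma adjusted p = 0.180).

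Genes that work with the SR and hnRNP proteins gave few calls, as did all tested genes, with 0.786% called lower and 0.902% higher. The counts in the lists below stand beside 52.8% of all tested genes below 0. An unadjusted p under 0.05 was reached by 10.1% of all tested genes with lower and 10.2% with higher values (limma). Of 8 tested genes for SR kinases and nuclear import, 3 were above and 5 below 0 (median -0.05), and 0 passed the test, at either an adjusted or an unadjusted p under 0.05 (limma). Srpk2 read 8.19 ± 0.719 and 9.44 ± 0.972 FPKM and Clk1 6.52 ± 0.388 and 8.05 ± 2.36 FPKM. Of 14 SR-related co-activators, 11 were below 0 (median -0.13) and 0 passed, with 1 at an unadjusted p under 0.05: Srrm3, a promoter of neuronal microexons, read 8.63, 8.56 and 8.34 FPKM in si-NC and 6.59, 5.04 and 5.15 FPKM in si-circCpsf6. Its groups lay apart, and its log2 fold change of -0.54 ± 0.14 (limma adjusted p = 0.0940) was -0.64 without replicate 1. Rsrc1 read 6.14 ± 0.552 and 4.55 ± 1.06 FPKM. Of 13 genes for recognition of the 3' splice site and the branch point, 11 were below 0 (median -0.17) and 0 passed, at either an adjusted or an unadjusted p under 0.05 (limma). Sf3a3 read 25.7 ± 1.51 and 19.7 ± 4.70 FPKM and U2af2 47.0 ± 5.90 and 39.2 ± 5.19 FPKM.

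Among 22 tested genes for other splicing regulators, 12 were above and 10 below 0 (median 0.05), and 1 was called. Celf4, a neuronal CELF protein that binds GU-rich sequences in mRNA, read 3.36, 1.51 and 2.53 FPKM in si-NC and 7.50, 6.02 and 6.60 FPKM in si-circCpsf6. It rose by 1.18 ± 0.22 on the log2 scale (n = 3 each; limma adjusted p = 0.0459), with every si-circCpsf6 library above every si-NC library. The call was close to the threshold: leaving out any 1 of the 6 libraries ended it, with limma adjusted p from 0.0707 to 0.175 and log2 fold changes from 0.97 to 1.37. It was also lost with a pseudocount of 0.1 (limma adjusted p = 0.0564) and with no filter (0.134). Of 14 hnRNP-related genes outside the name rule, 9 were below 0 (median -0.17) and 0 passed, with 2 at an unadjusted p under 0.05 in each direction (limma). The FET family members there had estimates of opposite sign: Ewsr1 read 64.8 ± 2.44 and 47.7 ± 6.78 FPKM and Taf15 33.8 ± 5.10 and 46.0 ± 1.32 FPKM, with a limma adjusted p of 0.148 for each. Of 10 NMD factors, 6 were below 0 (median -0.08) and 0 passed, with 1 at an unadjusted p under 0.05 (limma). That gene was Smg6, the endonuclease of the pathway, at 6.78 ± 0.0451 and 10.9 ± 1.89 FPKM (limma adjusted p = 0.0826), while the helicase gene Upf1 read 19.9 ± 2.19 and 14.5 ± 3.82 FPKM (limma adjusted p = 0.25).

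Some member values are uncertain because other genes can share their reads, and the labels do not say whether reads were counted by strand. Hnrnpu overlaps Cox20 on the opposite strand, which read 7.29 ± 0.557 and 4.77 ± 2.22 FPKM and was also lowest in si-circCpsf6 replicate 1. Srsf2 overlaps Mfsd11 (8.69 ± 1.05 and 11.5 ± 2.34 FPKM) and Mettl23, and Ptbp1 overlaps Plppr3 (9.67 to 13.4 FPKM over the 6 libraries), all on opposite strands. Tra2a overlaps Gm43980 on the opposite strand, which read 14.1 ± 3.37 and 13.3 ± 1.02 FPKM beside 20.7 and 16.5 FPKM for Tra2a, and Ptbp2 overlaps Gm42664 on its own strand (3.45 ± 0.773 and 4.13 ± 0.516 FPKM). Hnrnph3 overlaps Rufy2, which was about as abundant at 9.24 ± 0.813 and 10.7 ± 1.44 FPKM. The pseudogene Hnrnpa1l2-ps2 stood at 1.67 ± 0.262 and 2.47 ± 1.37 FPKM, low beside Hnrnpa1. Hnrnpk overlaps Rmi1 on the opposite strand and Mir7-1 on its own, with means of 4.33 and 1.93 FPKM over the 6 libraries. Srsf4, at a mean of 17.4 FPKM, overlaps Gm12992 on the opposite strand, at 6.36 FPKM. Of the members with the largest estimates, Srsf6, Srsf3, Srsf10, Hnrnph1 and Hnrnpa2b1 overlap no annotated gene.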

How the data were processed

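Trizol RNA of Neuro2A cells was made into Illumina libraries, per the labels' protocols, which name a small RNA kit for these mRNA libraries. The authors deposited 1 table with FPKM per gene and library, rounded to 2 decimals, per the file headers. Fold changes (a ratio and its log2) with p-values and q-values, rounded to 2 decimals, stand beside them in the deposited table. Neither the authors' test nor their FPKM program is named by a source used here. Bowtie 0.12.2, mm8 and mm9 appear in the submitters' processing notes with no stated use.

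The 12974 genes whose mean reached 1 FPKM entered limma 3.58.1 (R 4.3.3), fitted to log2(FPKM + 1) by group, with a variance trend and Benjamini-Hochberg adjustment over them all. No exact permutation test was run, since 3 libraries a side allow no p under 0.1. The fit was tested on simulated data. Groups and replicate numbers came from sample titles. The numbers were not taken to pair the samples, since same-numbered deviations correlated only weakly over genes, at 0.103, 0.129 and 0.084. Differently numbered ones correlated at -0.181 to 0.078, below every same-numbered value. Positions, overlaps and 3' UTRs came from GENCODE M21, which held 55144 of the table's identifiers. Members and lists were chosen with earlier results of these data known. Values in all libraries are given for the 3 most abundant and 5 most changed members of each family, Ptbp and Tra2 genes and carriers of the heptamer. For each other list, genes passing the test are given, or otherwise the 2 with the smallest p. Genes outside this rule were chosen after their values were seen: Srsf1, Srsf4, Srsf9, Srsf12 and the other hnRNP genes to account for every member, Mycn, and overlapping genes. Protein sequences were not analysed here. Alternatives were other scalings, pseudocounts, filters and gene classes, no trend, a replicate block, the authors' q-values and leaving out each library.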

Additional observations from a re-analysis of the deposited data

How the results depend on the processing

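The 0 calls among the members held in every alternative run: leaving out each library, the replicate block, the authors' deposited q-values, protein-coding genes alone, no trend, 2 other filters (none, or 5 FPKM), a pseudocount of 0.1, and scaling by quantiles or medians. Over the limma alternatives the smallest adjusted p of a member was 0.0986, under quantile normalization. Counts over the whole table moved more, and the cause was not tested: 4 higher and 9 lower with no filter (30181 genes tested), 245 and 192 for protein-coding genes alone, and 495 and 321 by the authors' deposited q-values. With 1 library left out they ran from 1 to 43 higher and from 2 to 44 lower. The fewest came on leaving out si-NC replicate 3 and the most on leaving out si-circCpsf6 replicate 1. With the replicate block, 6 genes were called higher and 5 lower, Celf4 had a limma adjusted p of 0.0615, and each library correlated best with its own number in the other group, a hint from the data and not from the design.

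The SR median stayed between -0.44 and -0.20 and the hnRNP median between -0.24 and -0.12 in all alternatives. The log2 difference in the ratio of summed SR to summed hnRNP FPKM was -0.199, -0.212 after quantile normalization of the tested genes, and -0.261 to -0.115 with 1 library left out. A single factor per library cancels in it, and the pseudocount, trend, gene class and block do not enter it. The other filters, protein-coding genes alone, no trend and the replicate block cannot alter a gene's fold change. In those settings the direction was fixed in advance, and only the side of the threshold could move. Of 280 values of 20 named members under alternatives, these included, 272 kept their direction and their side of the threshold. The 8 that turned did so with 1 library left out, where Srsf11 ran from -0.04 to 0.07, Ptbp2 from -0.17 to 0.11, Hnrnpab from -0.43 to 0.02 and Hnrnpa1 from -0.14 to 0.04. Fragment counts behind FPKM are not known, so the precision of low values is not known either.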
